A study of Homo sapiens with 18 samples.

Results

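MIR663AHG and ANKRD30BL are 2 of the 38055 genes in the whole transcriptome table of HCT116 cells, a colorectal carcinoma cell line, and they were chosen by their values in this table, as the RNAs that rose strongly from day 3 to day 5. Those values are therefore given here as a description with no test. The 2 rows of miR-663 among the 2167 mature miRNAs of the small RNA table, which took no part in the choice, were read beside them. Wild-type HCT116 cells were grown with no other treatment and collected as whole cell RNA on day 3 (50% confluency), day 5 (250% confluency) and day 7 (400% confluency by the labels), as 3 biological replicates a day. The whole transcriptome values used here cover day 3 and day 5, and the small RNA values cover all 3 days. Day and density changed together and cannot be told apart. In bulk RNA, a change in the amount per cell and a change in the mix of cells cannot be told apart either.

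MIR663AHG is a long noncoding RNA named as the host gene of miR-663a, and ANKRD30BL, named for its likeness to ANKRD30B, holds the miR-663b hairpin. A host gene is transcribed as a long primary RNA from which the enzymes DROSHA and DICER1 cut the short mature miRNA. Ribosomal RNA follows another route: RNA polymerase I makes a long 45S precursor from many repeated gene copies, the 18S, 5.8S and 28S RNAs are cut out of it, and the spacers between them are normally destroyed in the nucleus with the help of the RNA exosome.

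MIR663AHG (ENSG00000227195, annotated as a lncRNA) lies on the minus strand at chr20:26167817-26251546 of GRCh38, with 20 exon blocks and 6609 exonic bases in GENCODE release 44. ANKRD30BL (ENSG00000163046, annotated as protein coding) lies on the minus strand at chr2:132147591-132257969, with 8 exon blocks and 4947 exonic bases. The mature miR-663a sequence lies in an exon of MIR663AHG, and mature miR-663b lies in an intron of ANKRD30BL. Both loci carry a stretch that resembles the 5′ external spacer of the 45S precursor, on the strand that is transcribed. In MIR663AHG the stretch at chr20:26207995-26209878 was 88.6% identical to bases 436 to 2321 of the 45S precursor, and 1065 of its bases, 16.1% of all exonic bases of the gene, were exonic. In ANKRD30BL the stretch at chr2:132256566-132257969 was 83.2% identical to bases 1100 to 2568, with 441 exonic bases. A further 3904 bases of ANKRD30BL at chr2:132252296-132256199 were intronic and 80.5% identical to bases 3651 to 7695, which hold 18S, the first internal spacer, 5.8S and most of the second internal spacer. The 45S reference was the RNA45SN1 copy at chr21:8433222-8446572, plus strand, 13351 bases long.

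The likeness is shown by the first 150 bases of the RefSeq promoter window of MIR663AHG (chr20:26209334-26209483, minus strand, GRCh38), which lie inside the stretch, set over bases 835 to 985 of the 45S precursor (chr21:8434056-8434206). In the GENCODE model these bases lie within the span of the gene and not upstream of it. Capitals mark the positions where the sequences differ, and 144 of the 150 bases were identical.
MIR663AHG window: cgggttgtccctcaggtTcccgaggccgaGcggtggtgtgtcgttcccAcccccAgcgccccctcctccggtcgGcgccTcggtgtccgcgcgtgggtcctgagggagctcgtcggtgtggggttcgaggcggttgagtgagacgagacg
45S precursor: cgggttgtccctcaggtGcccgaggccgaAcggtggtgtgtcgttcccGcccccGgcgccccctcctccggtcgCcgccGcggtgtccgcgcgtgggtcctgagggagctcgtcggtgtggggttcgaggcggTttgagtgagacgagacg

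The MIR663B hairpin inside ANKRD30BL (RefSeq, chr2:132256966-132257080, minus strand) matched bases 2025 to 2139 of the precursor (chr21:8435246-8435360) at 106 of 115 bases. Capitals again mark the differences, and the run of identical bases at the 3′ side holds mature miR-663b.
MIR663B hairpin: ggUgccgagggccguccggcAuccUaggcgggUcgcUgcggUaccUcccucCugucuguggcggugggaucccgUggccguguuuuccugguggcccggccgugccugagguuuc
45S precursor: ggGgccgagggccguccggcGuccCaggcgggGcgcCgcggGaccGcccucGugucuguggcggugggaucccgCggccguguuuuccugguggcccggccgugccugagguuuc

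Of the 2370 mature miRNA names in the RefSeq table (GRCh38.p14), 12 were found whole on the same strand of the 45S precursor, 6 of them in its 5′ external spacer. Both miR-663 forms were among these 6. The mature sequences on which the small RNA results turn are given with the seed, bases 2 to 8, in capitals.
miR-663a: aGGCGGGGcgccgcgggaccgc
miR-10396b-5p: cGGCGGGGcucggagccggg
miR-663b: gGUGGCCCggccgugccugagg
miR-3648: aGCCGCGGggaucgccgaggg
miR-10396b-3p: gGCCCCGGgcccucgaccggac
miR-1268a: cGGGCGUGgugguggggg
miR-663a matched bases 2050 to 2071 of the precursor and miR-663b bases 2114 to 2135, with 0 mismatches each. The seed of miR-663a was shared by 3 other mature miRNAs, miR-10396b-5p, miR-1908-5p and miR-6787-5p. The seed of miR-663b was shared by 0 others, so the 2 miR-663 forms belong to different seed groups. miR-1268a matched the 3′ external spacer, at bases 13098 to 13115, though its gene is annotated on chromosome 15.

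MIR663AHG moved from a moderately to a very highly counted RNA. Its deposited value, reads divided by a size factor for each library, was 9053, 9383 and 6721 in the 3 day 3 libraries and 280957, 299509 and 253153 in the 3 day 5 libraries. Every day 5 library lay above every day 3 library, as was the case for 33.4% of the 20129 genes tested. The mean rose from 8385 ± 1451 (SD, n = 3) to 277873 ± 23331 (SD, n = 3), a ratio of 33.1, and a mean ratio of 16 or more was met by 0.0944% of the tested genes. Nothing is read from these shares, since the choice of the gene used this contrast.

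As a share of all reads counted on genes, MIR663AHG took 0.0266%, 0.0268% and 0.0173% on day 3 and 0.825%, 0.880% and 0.726% on day 5. Its rank by reads went from 514, 529 and 910 to 7, 5 and 7. The third day 3 library, which has the lowest share, is also the shallowest, with 27470978 reads against 31403756 to 56689369 in the others. The 95% Wilson interval of each share reached at most 2.85% of the share to either side and covers counting error only.

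ANKRD30BL moved by a similar factor from a much lower level. Its deposited value was 376, 405 and 319 on day 3 and 12398, 14977 and 13397 on day 5, again with no overlap between days. The mean rose from 367 ± 43.7 (SD, n = 3) to 13591 ± 1301 (SD, n = 3), a ratio of 37.1. Its share of reads was 0.00110%, 0.00116% and 0.000819% on day 3 and 0.0364%, 0.0440% and 0.0384% on day 5. The reads behind these shares were 428, 655 and 225 on day 3 and 11432, 13974 and 12938 on day 5, so the widest interval, that of the third day 3 library, reached 13.1% of the share to either side. Its rank by reads went from between 9197 and 9943 to between 250 and 329.

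On the log2(value + 1) scale the difference was 5.06 for MIR663AHG and 5.21 for ANKRD30BL. Set against exonic length, MIR663AHG was at 35.6 ± 8.25 RPKM (reads scaled to exonic length and library depth, SD, n = 3) on day 3 and 1226 ± 118 on day 5, and ANKRD30BL was at 2.07 ± 0.367 and 80.1 ± 7.96. MIR663AHG thus had more reads per exonic base than ANKRD30BL on both days. The reads of ANKRD30BL stayed between 4.15% and 4.75% of those of MIR663AHG on day 3 and between 4.41% and 5.29% on day 5, ranges that overlap. How reads that match several places were counted is not given in the sources used here. Copies at 95% identity or more elsewhere in the genome covered 63.9% of the exonic bases of MIR663AHG and 98.6% of those of ANKRD30BL. The stretches like 45S, at 88.6% and 83.2% identity, made up 16.1% and 8.91% of the exonic bases. Gene totals do not show where in a gene the reads fell. Transcripts of these loci, of their copies and of the 45S precursor therefore cannot be told apart from them.

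The pattern over the 6 libraries was compared with that of all 9867 genes averaging at least 10 CPM (reads scaled to equal library depth), as the root mean square difference of log2(value + 1) after subtracting the mean of the day 3 libraries. For each of the pair the most similar gene was the other, at 0.14. MIR3648-2 followed, at 0.25 from MIR663AHG and 0.36 from ANKRD30BL, and then ENSG00000264063, at 0.33 and 0.41. Next came NDRG1, a stress-response gene raised in hypoxia, at 0.38 and 0.42, and DDIT4, an inhibitor of mTORC1 signalling, at 0.46 and 0.53. Each of these 4 genes had a smaller log2 difference than either of the pair. The measure includes the rise by which the pair was chosen, so the likeness is a description and nothing is read from it.

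The pair had been chosen by its rise, so its place among the other rises is a description and nothing is read from it. In the list of 3707 genes that passed the threshold, did not overlap between days and averaged at least 10 CPM, ANKRD30BL and MIR663AHG stood at the second and the third place. ANGPTL4, a secreted inhibitor of lipoprotein lipase, had the largest, at 6.07 on the log2 scale. MIR3648-2 at 4.74, ENSG00000264063 at 4.71, NDRG1 at 4.68 and DDIT4 at 4.49 came next. ALDOC, a glycolytic aldolase, rose by 4.22, ANKRD37, a hypoxia-inducible factor target, by 4.10 and BHLHE40, a transcriptional repressor, by 3.92. In all, 56.9% of tested genes passed the limma threshold, 29.3% higher and 27.6% lower on day 5, with a median log2 difference of 0.01.

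Genes of the table with at least 50 exonic bases like 45S on the same strand were then gathered, a list chosen after values were seen and given with no test. There were 9, of which 5 matched the 5′ external spacer. They are MIR663AHG, ANKRD30BL, MIR3648-2, ENSG00000264063 and MIR663B. MIR3648-2 (chr21:8986999-8987178) and ENSG00000264063 (chr21:8987370-8987430) are short genes annotated as miRNA hairpins, both in a stretch 99.4% identical to 45S.

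MIR3648-2 was at 5414, 4667 and 4105 on day 3 and 126771, 129363 and 120222 on day 5. ENSG00000264063 was at 950, 661 and 770 on day 3 and 20744, 21830 and 19365 on day 5. The days did not overlap for either gene, and the ratios of the means were 26.5 and 26.0.

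MIR663B was at 12.3, 5.56 and 8.51 on day 3, from 14, 9 and 6 reads, and at 241.8, 264.7 and 205.03 on day 5. Its ratio of 27.0 rests on few day 3 reads. MIR663B reads equalled 1.37% to 3.27% of the ANKRD30BL reads on day 3 and 1.53% to 1.95% on day 5. Together the 5 spacer-like genes held 0.0401% ± 0.00836 of reads (SD, n = 3) on day 3 and 1.28% ± 0.103 on day 5.

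**Figure D1:**
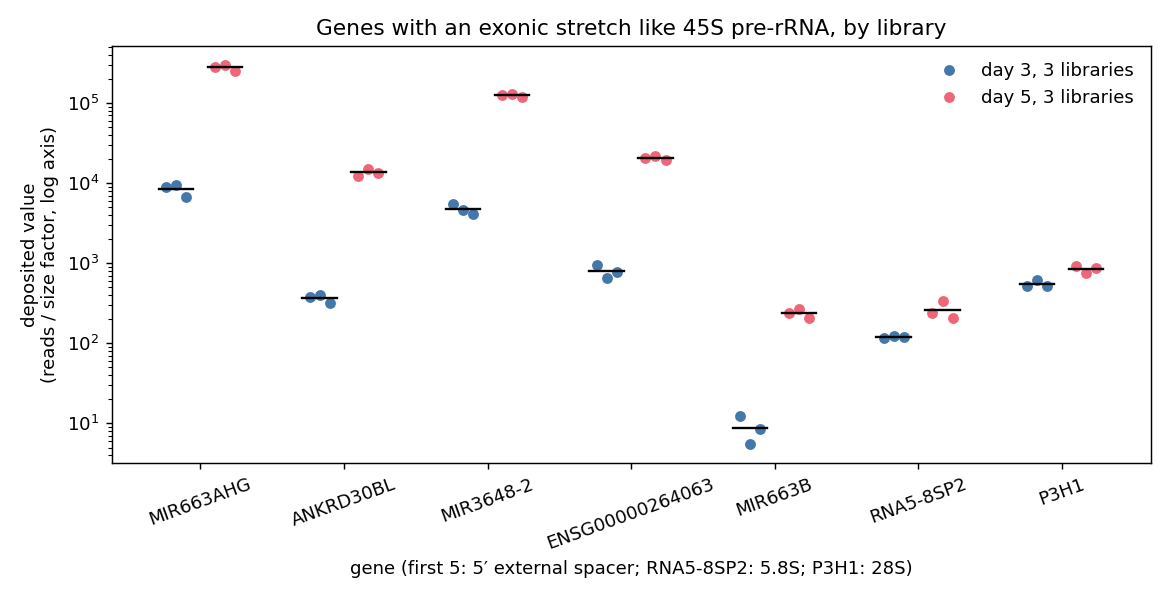
Deposited value (reads divided by a size factor, log axis) of 7 genes with an exonic stretch like 45S, for 3 day 3 and 3 day 5 libraries, where points are libraries and bars are means. RNA5-8SP5 and RNA5-8SP6 of the same list are not shown, and RNA5-8SP6 was lower on day 5, with a ratio of 0.350. The 5 genes like the 5′ external spacer were 26.0 to 37.1 times higher on day 5, while RNA5-8SP2 and P3H1 differed by 2.17 and 1.56 times. The pair was chosen by this contrast and MIR663B rests on few day 3 reads, so nothing is read from the range.

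Genes that resemble other parts of the precursor moved less. RNA5-8SP2, a pseudogene of 5.8S RNA, was at 118, 122 and 120 on day 3 and 236, 338 and 209 on day 5, with no overlap and a ratio of 2.17. P3H1, a collagen prolyl hydroxylase gene with 72 exonic bases like 28S, had a ratio of 1.56. RNA5-8SP5 had at most 9 reads in any library, and RNA5-8SP6 had a log2 difference of -1.50. Of 39 further genes whose same-strand likeness was intronic or under 50 exonic bases, 33 were tested, with a median log2 difference of 0.19, and 1 of them had a difference of 3 or more. All 6 libraries had been depleted of ribosomal RNA, and no untreated library was analysed here.

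**Figure D2:**
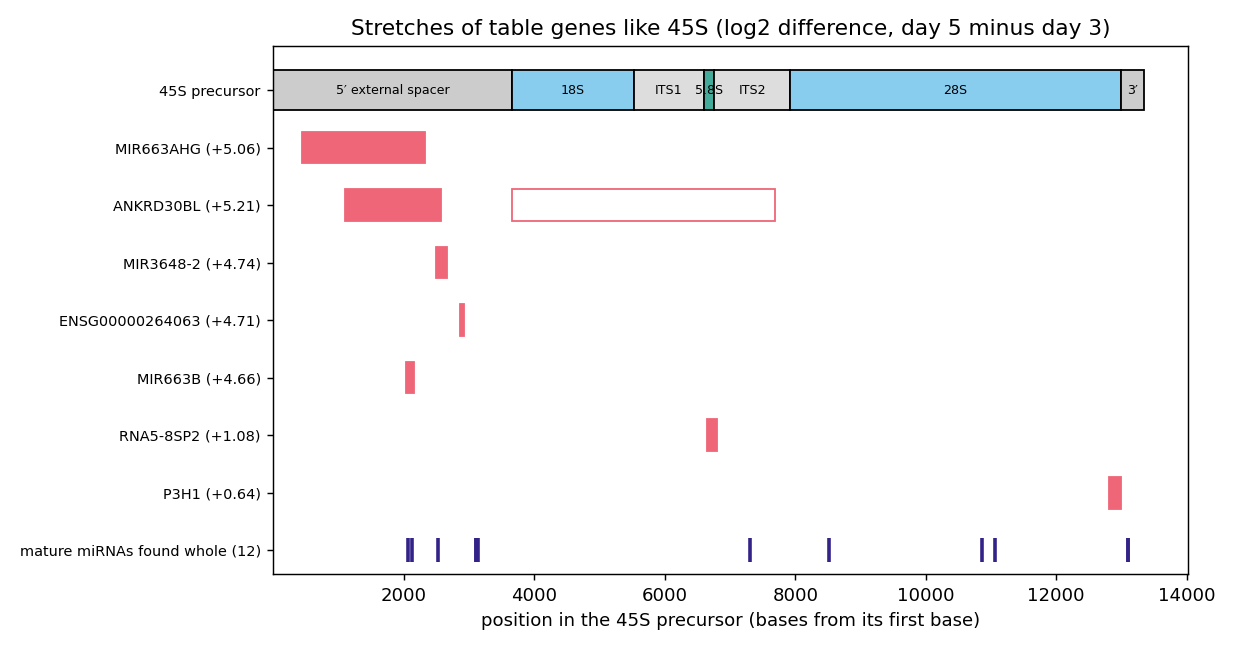
Position along the 45S precursor, in bases from its first base, of the stretches of 7 genes that resemble it (filled, at least 50 exonic bases; open, intronic) and of the 12 mature miRNAs found whole in it (ticks). RNA5-8SP5 and RNA5-8SP6 are not shown, and RNA5-8SP6 had a log2 difference of -1.50. The log2 difference between days is beside each gene name, and the 5 genes in the 5′ external spacer have the values from 4.66 to 5.21. The pair was chosen by this difference and MIR663B lies inside ANKRD30BL, so nothing is read from the range.

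The small RNA libraries were read for both mature miRNAs annotated at these loci. Both sequences were also found whole in the 45S precursor, so their rows cannot be assigned to the loci rather than to the precursor. The methods give trimmed read lengths longer than either sequence. miR-663a was at log2 values of 2.36, 2.20 and 2.93 on day 3, 1.31, 1.54 and 3.28 on day 5 and 1.36, 0.74 and 1.52 on day 7. The day 5 libraries overlapped those of day 3, and all day 7 libraries lay below all day 3 libraries. miR-663b was at 0.97, 0.73 and 0.17 on day 3, at -0.42, 0.20 and -0.42 on day 5 and at 0.95, 1.25 and 1.32 on day 7. It was lowest on day 5, where its range overlapped that of day 3 slightly.

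Neither row reached the value of 10 that the filter on low values requires in any of the 9 libraries, so their p-values come from the fit over all 2167 miRNAs without a filter, in which limma passed 2.31% of miRNAs for day 5 against day 3, 10.2% for day 7 against day 3 and 7.57% for day 7 against day 5. From day 3 to day 5 the log2 difference was -0.45 (SE 0.60, adjusted p = 0.867) for miR-663a and -0.84 (SE 0.29, adjusted p = 0.360) for miR-663b, so neither passed and both differences were negative. From day 3 to day 7 it was -1.29 (SE 0.30, adjusted p = 0.0665) for miR-663a and 0.55 (SE 0.24, adjusted p = 0.294) for miR-663b. From day 5 to day 7 miR-663b rose by 1.39 (SE 0.26, adjusted p = 0.0212), while miR-663a had a difference of -0.84 (adjusted p = 0.547). Day 5 replicates 1 and 3 of miR-663b stood at -0.422 and -0.425, nearly equal and the lowest values of its row. The size of its differences from day 5 is therefore uncertain. The miR-663b call was lost without day 5 replicate 1 (adjusted p = 0.0777), day 5 replicate 3 (0.0824), day 7 replicate 2 (0.0811) or day 7 replicate 3 (0.0813). The methods give read yields only as a range over the small RNA libraries, and reads cannot be recovered from these log2 values, so the counting error of such low values was not computed.

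The other miRNAs found whole in the 5′ external spacer were lower on average on day 5 and on day 7 than on day 3. miR-10396b-3p, the most abundant of them, was at 7.25, 6.40 and 7.41 on day 3, at 2.89, 2.78 and 3.24 on day 5 and at 2.20, 2.89 and 2.33 on day 7. It fell by 4.05 on the log2 scale on day 5 (SE 0.25, limma adjusted p = 2.7e-05) and fell by 4.55 on day 7 (SE 0.28, adjusted p = 1.8e-05). It passed the filter only through the day 3 libraries, where it is high. In the fit without a filter the adjusted p was 0.0140 on day 5 and 0.00382 on day 7, and without any 1 library it was 0.00987 to 0.0487 and 0.00957 to 0.0237. Among the filtered miRNAs, limma passed 14.8% for day 5 against day 3, 53.7% for day 7 against day 3 and 44.3% for day 7 against day 5.

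miR-3648, the miRNA of MIR3648-2, was at 1.84, 0.71 and 1.70 on day 3, at -1.27 in all 3 libraries of day 5, which differed by at most 0.00324, and between -1.28 and -1.23 on day 7. Values this constant are the lowest the row takes, so a difference from them is set by that lowest value and gives no measured size of change. Without a filter the fitted difference was -2.69 on day 5 (limma adjusted p = 0.0297) and -2.67 on day 7 (adjusted p = 0.0129). The day 5 call was lost without any of 5 libraries, day 3 replicates 1 and 3 and all 3 of day 5, with adjusted p from 0.0772 to 0.119, and the day 7 call without any day 7 library, with adjusted p from 0.0515 to 0.0571. Reads counted on MIR3648-2 were 26.5 times higher on day 5 in the whole transcriptome table, and no rise of miR-3648 was seen in the small RNA table. MIR3648-2 lies in a stretch 99.4% identical to 45S, so its reads cannot be told apart from those of the precursor. No hairpin amount is therefore set against the mature form. miR-10396b-5p and miR-10396a-5p had log2 differences of -1.09 and -0.49 on day 5 (adjusted p = 0.388 and 0.805).

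Other miRNAs matched the precursor elsewhere. Of these, miR-1268a was at 7.40, 7.50 and 7.60 on day 3, 7.69, 7.71 and 7.74 on day 5 and 6.90, 6.85 and 6.75 on day 7. It fell by 0.67 on day 7 against day 3 (SE 0.11, limma adjusted p = 0.00116), and miR-1268b fell by 0.64 (adjusted p = 0.00139). These 2 differ in length only at the 3′ end and are nearly the same sequence. miR-4488, miR-4492 and miR-4516, which matched 28S, did not pass in any of the 3 comparisons without a filter on the deposited scale. The same held for miR-9901, which matched the second internal spacer. The genes of these 4 are annotated away from the 45S reference copy, on chromosome 11 or 16. After scaling to library totals all 4 passed as lower for day 7 against day 3, with adjusted p from 0.0152 to 0.0372. In that fit without a filter 836 of 2167 miRNAs were lower and 72 higher. On the deposited scale miR-4516 stood between -2.08 and -2.02 in all 9 libraries, so nothing is read from these calls. For day 7 against day 3 the median over the 559 filtered miRNAs was 0.30 on the deposited scale and -0.21 after scaling to library totals, so the directions on day 7 stand against that shift.

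**Figure D3:**
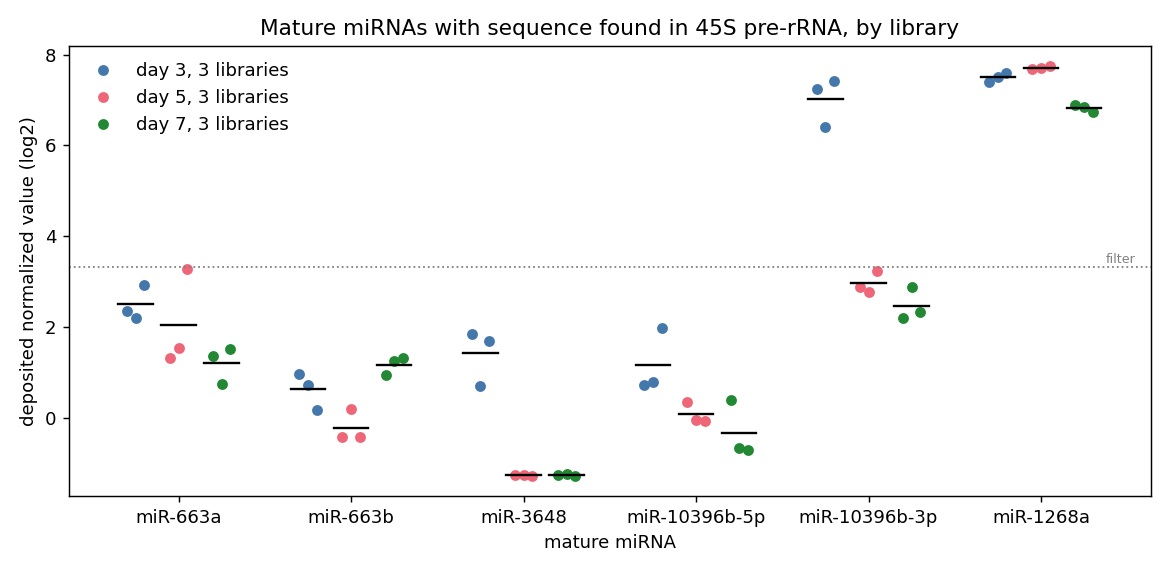
Deposited normalized log2 values of 6 mature miRNAs found whole in 45S, by library, on day 3, day 5 and day 7 (3 libraries each, bars are means, the dotted line is the filter). miR-10396b-3p stood between 6.40 and 7.41 on day 3 and between 2.20 and 3.24 later, and neither miR-663 form reached the filter.

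The other host genes of miRNAs passed about as often as genes in general. Of 57 such genes in the table besides MIR663AHG, 28 were tested, 7 were higher, 9 were lower and 12 did not pass, where 29.3% of all tested genes were higher and 27.6% lower, with a median log2 difference of -0.05 against 0.01 for all genes. MIR210HG, the host of the hypoxia-induced miR-210, was at 73.8, 36.5 and 41.1 on day 3 and 462, 548 and 447 on day 5, a rise of 3.31 (SE 0.27, limma adjusted p = 0.000310). MIR17HG, the host of the miR-17-92 cluster, fell by 1.06 (adjusted p = 0.00170), and MIR31HG fell by 0.79 (adjusted p = 0.00940).

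The neighbours of the pair within 500 kb were mostly too low to test. There were 38 such genes, of which 9 were tested, 2 were higher and 1 was lower, where 29.3% of all tested genes were higher and 27.6% lower, with a median log2 difference of 0.07. MIR663B is 1 of the 2, but it passed the filter only through day 5 and lies inside ANKRD30BL, and without it 1 of 8 was higher. ZNF337, a zinc finger gene near MIR663AHG, rose by 0.42 (SE 0.07, adjusted p = 0.00357), and CDC27P1, a pseudogene, fell by 0.85 (adjusted p = 0.0205). GPR39, a zinc-sensing receptor gene near ANKRD30BL, had a difference of 0.29 (adjusted p = 0.0757).

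The genes of the machinery that makes ribosomal RNA were mostly lower on day 5. Of 15 genes for RNA polymerase I and its factors, all tested, 10 were lower, 1 was higher and 4 did not pass, where 27.6% of all tested genes were lower and 29.3% higher, with a median log2 difference of -0.67 against 0.01. RRN3, the factor that brings the polymerase to the promoter, fell by 0.69 (SE 0.08, limma adjusted p = 0.000858), and the subunit gene POLR1F fell by 1.18 (adjusted p = 0.000244). POLR1A, the gene of the largest subunit, rose by 0.63 (adjusted p = 0.00391). UBTF, which binds the ribosomal gene promoter, had a difference of 0.33 (adjusted p = 0.0842).

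The nuclear exosome and its cofactors, which degrade the spacers, were also mostly lower. Of 17 genes, all tested, 12 were lower, 1 was higher and 4 did not pass, against the same 27.6% lower and 29.3% higher over all genes, with a median of -0.70. EXOSC9 fell by 1.48 (SE 0.08, adjusted p = 0.000156), MTREX, the helicase that feeds the exosome, fell by 0.70 (adjusted p = 0.000800) and DIS3, a catalytic subunit gene, fell by 0.62 (adjusted p = 0.00126). EXOSC6 rose by 0.51 (adjusted p = 0.0125), and EXOSC10, the other nuclear nuclease, had a difference of -0.07 (adjusted p = 0.538). The part of these changes in the rise of the pair was not tested.

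Of the 9 genes that process primary miRNAs, 2 were higher, 4 were lower and 3 did not pass, with a median of -0.24, where 56.9% of all tested genes passed, 29.3% higher and 27.6% lower. DROSHA rose by 0.30 (SE 0.07, adjusted p = 0.0117), DICER1 fell by 0.32 (adjusted p = 0.00928), and RAN, the GTPase that drives export of the hairpin, fell by 1.23 (adjusted p = 0.000305). DGCR8, the partner of DROSHA, had a difference of -0.13 (adjusted p = 0.275).

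Among 4 genes described as targets of miR-663a all 4 were higher on day 5, with a median log2 difference of 1.55. The transcription factor gene JUND was at 663, 778 and 868 on day 3 and 2498, 2484 and 2272 on day 5, a rise of 1.66 (SE 0.12, adjusted p = 0.000235). TGFB1, a growth factor gene, rose by 1.71 (adjusted p = 0.000272), JUNB by 1.44 (adjusted p = 0.000482) and CDKN1A, a cell cycle inhibitor gene, by 0.93 (adjusted p = 0.00141). A list of 4 is small, and 29.3% of all tested genes were higher.

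**Figure D4:**
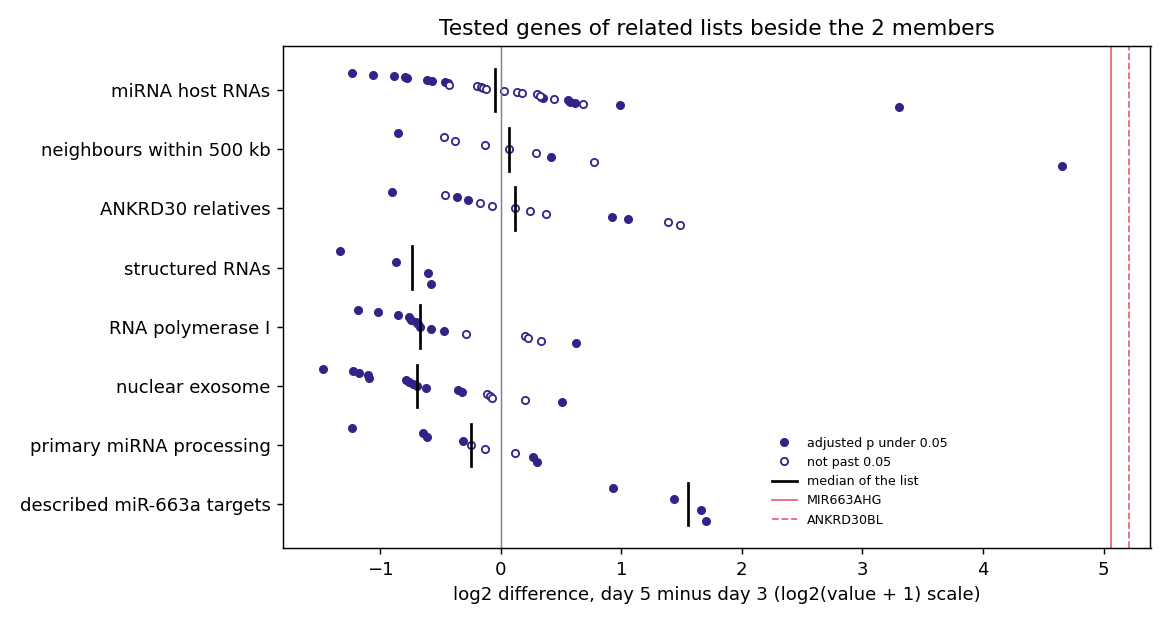
Log2 difference between day 5 and day 3 for the tested genes of 8 lists, where filled points passed the limma threshold, short black bars are list medians and vertical lines are MIR663AHG (5.06) and ANKRD30BL (5.21). No tested gene of these lists reached the lines, and the nearest, at 4.66, is MIR663B, which lies inside ANKRD30BL.

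Abundant structured RNAs moved the other way. RN7SK, the RNA that holds the elongation factor P-TEFb inactive, was at 671307, 587411 and 882401 on day 3 and at 285142, 274093 and 276207 on day 5, and fell by 1.34 (SE 0.16, adjusted p = 0.000858). RMRP, the RNA of the enzyme that cuts the first internal spacer, fell by 0.87 (adjusted p = 0.00153), and the mitochondrial ribosomal RNAs MT-RNR1 and MT-RNR2 fell by 0.60 and 0.58 (adjusted p = 0.0419 and 0.0150). The libraries had been depleted of ribosomal RNA, and how far depletion shaped the mitochondrial values was not tested. The table held 5 RNAs of this list, of which 4 were tested, and all 4 were lower, where 27.6% of all tested genes were lower, with a median of -0.73. After scaling to library totals 3 of the 4 passed.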

How the data were processed

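Total RNA of HCT116 cells was sequenced in 6 whole transcriptome libraries (ribosomal RNA depleted, adapters with molecular identifiers, use in counting not stated) and 9 small RNA libraries. The labels name bcl2fastq, FastQC 0.11.8, MultiQC 1.7 and hg38. The methods describe strand-specific mapping to Ensembl genes in CLC Genomics Workbench. The deposited whole transcriptome signal was gene reads divided by a size factor for each library, by the authors; whole reads were recovered for 100% of values (tolerance 0.01), 27470978 to 56689369 a library. The deposited small RNA tables hold normalized log2 values of the authors, for which the methods name TMM; the log2 transformation is not named and reads cannot be recovered. The authors' own fold changes, a score for their test statistic and p-values in these deposited tables were not used. Whole transcriptome values of day 7 were not analysed here.

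Groups came from the labels. Genes or miRNAs were kept if 3 or more of the 6 libraries held a value of 10 or higher, and were tested with limma 3.58.1 in R 4.3.3 (log2(value + 1) for genes, log2 as deposited for miRNAs) over the whole table, with Benjamini-Hochberg adjustment and a threshold of 0.05. For day 7 against day 5 all 9 libraries entered the fit and 3 of the 9 had to reach the value. Counts had been planned for; the values called for limma, and edgeR 4.0.16 and DESeq2 1.42.0 on recovered reads were alternatives. Other alternatives were library totals, a pseudocount of 0.1, no filter, a replicate block and leaving out each library. Fits without a filter combined with another alternative, and the neighbour count without MIR663B, were chosen after seeing the data. Scripts were tested on simulated data. Likeness to 45S was found with BLAST 2.17.0 (at least 100 aligned bases and 75% identity), gene models came from GENCODE release 44 and sequences from GRCh38 and RefSeq.

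Named genes were the pair, for each the 5 genes most alike, the 10 largest rises, members of the lists given and the miRNAs tied to the pair or to 45S. The pair, the lists and the rules were chosen with earlier results of these data known. Python 3.11.15 (pandas 2.3.3, scipy 1.17.1, matplotlib 3.10.9) made tables and figures.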

Additional observations from a re-analysis of the deposited data

Results flagged for a closer look

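miR-663b differed between its changes to day 5 and to day 7, both against the same day 3 libraries: the difference, day 7 minus day 5, was 1.39 on the log2 scale (limma without a filter, adjusted p = 0.0212), and all 3 day 7 libraries lay above all 3 day 5 libraries. miR-1268a and miR-1268b differed in the same way in the other direction, by -0.88 and -0.85 (limma, adjusted p = 0.000173 for each), with all 3 day 7 libraries below all 3 day 5 libraries. These sequences of miR-1268 overlap, so they are not separate observations. For miR-663b, day 5 replicates 1 and 3 held the lowest values of its row, nearly equal, so the size of its difference is uncertain.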

How the results depend on the processing

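The log2 differences and shares of the pair kept their direction under every alternative compared. For the pair, DESeq2 and the fit without a filter were not compared. Without 1 library the log2 difference was 4.91 to 5.15 for MIR663AHG and 5.11 to 5.29 for ANKRD30BL, and the ratio of shares was 30.4 to 36.9 and 35.1 to 41.2. The number of genes past the threshold was 11450, and 9811 to 11380 without 1 library. For day 5 against day 3, 80 miRNAs passed, against 135 after scaling to library totals, 50 without a filter and 36 to 118 without 1 library. For day 7 the counts without 1 library were 216 to 296 against day 3 (300 with all) and 173 to 319 against day 5 (251 with all, 164 without a filter). After scaling to library totals 85 miRNAs were higher and 230 lower on day 7 against day 3, in place of 253 and 47, and 58 higher and 254 lower against day 5, in place of 223 and 28.

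After scaling to library totals, miR-663a fell by 1.79 on day 7 against day 3 (adjusted p = 0.0204), which passed, and so did miR-10396b-5p (adjusted p = 0.0256), miR-4488 (0.0152), miR-4492 (0.0372), miR-4516 (0.0204) and miR-9901 (0.0210). Under that scaling without a filter, 836 of all 2167 miRNAs were lower and 72 higher, with a median of -0.47. The falls listed stand against that shift. Without 1 library the log2 differences were -1.07 to -0.09 (miR-663a) and -1.07 to -0.67 (miR-663b) on day 5, -1.45 to -1.06 and 0.32 to 0.72 on day 7, and -1.21 to -0.22 and 1.28 to 1.60 for day 7 against day 5, where 4 of the 9 fits lost the miR-663b call. Signs turned only for values that did not pass on the deposited scale: for day 7 against day 5 after scaling to library totals, miR-3648 (-0.47), miR-4492 (-0.48) and miR-4516 (-0.48, adjusted p = 0.00833), miR-10396a-5p without day 5 replicate 1 (0.0189, range -0.322 to 0.0189 without 1 library), and miR-4516 on day 7 against day 3 without day 3 replicate 2 (0.0102) or day 7 replicate 3 (0.0059, range -0.0227 to 0.0102). RNA polymerase I genes higher on day 5 numbered 2 after scaling to library totals and 3 by edgeR in place of 1, relatives of ANKRD30 lower on day 5 numbered 1 after scaling to library totals in place of 3, and neighbours lower numbered 2 by edgeR in place of 1. The cause was not tested.

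Replicate numbers did not pair the samples: the correlation of same-numbered deviations was -0.01 to 0.03 in the whole transcriptome and -0.0767 to 0.116 in the small RNA table. With the replicate block 10533 genes and 71, 302 and 254 miRNAs passed, and the miR-3648 values lost the call (adjusted p = 0.181 on day 5 and 0.0865 on day 7), as did miR-10396b-3p without a filter (0.0941 and 0.0698).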

Other observations

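Relatives of ANKRD30BL were counted by gene family. Of 29 genes of the ANKRD30, ANKRD20, ANKRD36 and POTE families in the table, 13 were tested, 2 were higher, 3 were lower and 8 did not pass, where 29.3% of all tested genes were higher and 27.6% lower, with a median log2 difference of 0.12. POTEKP, a pseudogene, rose by 1.05 (limma adjusted p = 0.0186), and ANKRD36 fell by 0.36 (adjusted p = 0.0203).

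Markers of the labelled epithelial cell type were present: EPCAM was at 7227 ± 257 (SD, n = 3) on day 3 and 7236 ± 173 on day 5. CDH1, KRT19, KRT8, KRT18 and CDX2 were higher on day 5, 5 of the 6 tested, where 29.3% of all tested genes were higher. CDX1 and VIL1 averaged under 3 on both days. Of the fibroblast markers 1 of 2 tested, COL1A1, rose, by 1.12 (limma adjusted p = 0.000289). The other, COL1A2, had a difference of -0.39 (adjusted p = 0.400), and PDGFRB and DCN were too low to test. The 4 immune markers summed to 0.146 to 0.287 CPM, and VWF, an endothelial marker, rose by 1.14 (adjusted p = 0.0414) at 14.1 and 32.1 on average.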
